A study of Mus musculus with 9 samples.

Results

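Loss of the miR-17 family was measured in mouse embryos at embryonic day 9.5 as a comparison of 2 small RNA libraries, one labelled miR-17 deleted (ΔmiR-17) and one wild type with the full miR-17~92 cluster. Per the labels' protocols, heart and tail bud were cut away first, and RNA came from what was left of the embryo. The comparison took 2 of the 8 genotype libraries and all 986 rows of mature miRNAs, of which 4 were arms of the deleted hairpins, 8 were arms of kept hairpins of the cluster, and 973 lay outside it. The remaining row was the lower of 2 rows listed for miR-92a-3p. The other 6 genotypes were labelled miR-18 deleted (ΔmiR-18), miR-19 deleted (ΔmiR-19), miR-92 deleted (ΔmiR-92), miR-17,18 deleted (ΔmiR-17,18), miR-17,18,92 deleted (ΔmiR-17,18,92) and miR-17~92 Knockout (full deletion). They served as the spread against which each value was read. All libraries carried the same stage, tissue and sex (female) labels. The sources used here do not give the number of embryos behind a library or whether a mutant carried the deletion on one or both alleles.

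A miRNA is cut from a hairpin in a longer transcript, and either side of the hairpin (the 5p or 3p arm) can give a mature strand. The more abundant arm is called the guide arm here and the other the partner arm. Bases 2 to 8 of a mature miRNA, its seed, do most of the pairing with target mRNAs, so miRNAs with the same seed share many targets. The miR-17~92 cluster is transcribed as 1 primary RNA with 6 hairpins of 4 seed families and is known for promoting proliferation and survival in the embryo. The miR-17 family is known to repress cell-cycle and TGF-beta pathway genes, and miR-92a the pro-apoptotic gene Bcl2l11 (Bim).

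The 2 deleted guide strands share their seed with 4 miRNAs of the paralog clusters on chromosomes X and 5, and these are shown because they are what remains of the seed family after the deletion. Sequences are RefSeq mature miRNAs (build GRCm38.p6), with the seed in capitals.
miR-17-5p (deleted): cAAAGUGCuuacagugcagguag
miR-20a-5p (deleted): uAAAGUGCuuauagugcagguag
miR-106a-5p (X-linked paralog): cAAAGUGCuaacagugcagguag
miR-20b-5p (X-linked paralog): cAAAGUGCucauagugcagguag
miR-93-5p (chromosome 5 paralog): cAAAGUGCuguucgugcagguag
miR-106b-5p (chromosome 5 paralog): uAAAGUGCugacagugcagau
miR-106a-5p was 1 edit away from miR-17-5p, miR-20b-5p 2 edits, miR-93-5p 3 and miR-106b-5p 5. The sources used here do not say how reads that match more than one of these were assigned, so levels of near-identical members are uncertain.

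The kept members of the cluster are shown because their levels also differed between the 2 libraries. miR-18a-5p has a seed related to that of miR-17-5p, and the miR-19 guides differ from each other by 1 edit.
miR-18a-5p: uAAGGUGCaucuagugcagauag
miR-19a-3p: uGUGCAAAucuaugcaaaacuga
miR-19b-3p: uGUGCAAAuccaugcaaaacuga
miR-92a-3p: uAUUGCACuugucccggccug
Outside the cluster, 3 of the 5 miRNAs furthest below all 7 other libraries and the 1 furthest above them are shown, to be read beside their values.
miR-296-3p (lower in ΔmiR-17): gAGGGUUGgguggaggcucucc
miR-382-5p (lower): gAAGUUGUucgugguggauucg
miR-181c-3p (lower): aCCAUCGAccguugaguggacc
miR-106b-3p (higher): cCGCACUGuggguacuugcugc

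Summed over the 986 rows, reads came to 7074869 in the wild-type library and 12949263 in ΔmiR-17, and to between 6570756 and 18486699 in the 6 other genotypes. Some rows repeat the reads of another name, so these sums count such reads more than once. Levels are given as normalised RPM (nRPM), on which 1 read was worth 0.157 nRPM in wild type and 0.074 nRPM in ΔmiR-17. With 1 library a side, a ratio compares 2 libraries and not 2 conditions, and its 95% interval (exact conditional, Clopper-Pearson) covers counting error only. Defining miRNAs of the main tissues were present in both libraries. Neural miR-124-3p stood at 1314 nRPM in ΔmiR-17 and 1167 in wild type, endothelial miR-126-3p at 9807 and 8043, and epithelial miR-200c-3p at 1769 and 2189. Heart-specific miR-208a-3p, from tissue that had been removed, stood at 24.7 nRPM in ΔmiR-17 and 6.26 in wild type, against 28.4 to 175.4 in the other 6. Both libraries were thus below all 6 others for this heart miRNA. Other miRNAs known from heart differed in direction. The log2 ratio of ΔmiR-17 to wild type was 1.82 for miR-208a-3p, -1.37 for miR-208b-3p and 0.79 for miR-499-5p. Their averages were low, at 65.9, 20.1 and 34.2 nRPM in that order, and the amount of heart tissue was not tested.

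The deleted miRNAs, which check the label, were nearly absent from the ΔmiR-17 library. miR-17-5p stood at 10.1 nRPM (137 reads) in ΔmiR-17 and 17321 nRPM (110648 reads) in wild type, or 0.0586% of wild type (95% interval 0.0492 to 0.0692). miR-20a-5p stood at 21.2 nRPM against 31056, or 0.0682% (0.0605 to 0.0766). The partner arm miR-17-3p stood at 0.889 nRPM (12 reads) against 1953. miR-20a-3p had 0 reads in ΔmiR-17 and 1453 in wild type, so that even 3 reads would be 0.0977% of wild type. The 3 other libraries labelled as lacking the family were likewise low for miR-17-5p, at 8.86 nRPM for ΔmiR-17,18,92, 10.1 nRPM for the full deletion and 179.9 nRPM for ΔmiR-17,18. The 3 other libraries that kept it stood at 21438 nRPM in ΔmiR-19, 36322 in ΔmiR-18 and 53692 in ΔmiR-92. Wild type was thus the lowest of the 4 libraries with an intact family for miR-17-5p, whereas for miR-20a-5p it was the highest, at 31056 against 13900 to 21096 nRPM.

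Although only miR-17 and miR-20a had been deleted, the kept hairpins that lie between them were also at lower levels than in wild type. In the annotation (GRCm38.p6, plus strand), the order is Mir17 (chr14:115043671-115043754), Mir18 (chr14:115043851-115043946), Mir19a (chr14:115044000-115044081), Mir20a (chr14:115044157-115044263), Mir19b-1 (chr14:115044305-115044391) and Mir92-1 (chr14:115044427-115044506). Mir18 and Mir19a, the 2 kept hairpins between the deleted ones, stood at 0.267 to 0.341 times wild type on both arms, and the 2 hairpins after Mir20a did not. miR-18a-5p stood at 3444 nRPM in ΔmiR-17 and 10094 in wild type, a ratio of 0.341 (95% interval 0.337 to 0.345). The other 2 libraries that kept miR-18a, ΔmiR-92 and ΔmiR-19, stood at 10573 and 12785 nRPM. ΔmiR-17 was therefore below every other library with an intact miR-18a, while wild type lay close to the other 2. For the partner arm miR-18a-3p ΔmiR-17 was again the lowest, at 67.9 nRPM in ΔmiR-17 and 253.9 in wild type (ratio 0.267), with 191.8 and 202.5 in the other 2, and here wild type was the highest.

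miR-19a-3p stood at 3219 nRPM in ΔmiR-17 and 9616 in wild type, a ratio of 0.335 (0.331 to 0.339). Its partner miR-19a-5p stood at 16.96 nRPM against 56.36, a ratio of 0.301 (0.254 to 0.356). The downstream member of the same family did not follow. miR-19b-3p stood at 25155 nRPM in ΔmiR-17 and 26880 in wild type (ratio 0.936), and miR-19b-1-5p at 95.6 and 95.3 nRPM (ratio 1.003). On the log2 scale the ratio of miR-19b-3p was -0.10 as deposited and 0.11 when scaled to plain read totals, so no direction is given. miR-19b-3p also comes from Mir19b-2 on chromosome X with the same mature sequence, whereas miR-19b-1-5p is named for the cluster's hairpin. Both libraries were low for miR-19b-3p among those that kept it, since the other 4 stood between 59360 and 155488 nRPM.

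The 2 arms of miR-92a-1 differed from wild type in opposite directions. miR-92a-3p, the most abundant miRNA of the ΔmiR-17 library, stood at 116037 nRPM there and 199437 in wild type (ratio 0.582, 0.580 to 0.583), for the higher of its 2 rows. The other 3 libraries that kept it stood at 60283, 68434 and 139006 nRPM, so wild type was above all of them and ΔmiR-17 was among them. For the partner miR-92a-1-5p the levels were 1678 nRPM in ΔmiR-17 and 1441 in wild type (ratio 1.16). The guide-to-partner ratio within a library, in which scaling cancels, was 69.1 in ΔmiR-17 and 138.4 in wild type, against 52.6 to 120.2 in the other 3. For the other kept hairpins it differed less, at 50.7 against 39.8 for miR-18a, 189.8 against 170.6 for miR-19a and 263.1 against 281.9 for miR-19b-1. Over the 4 kept guide arms the median log2 ratio was -1.17 (range -1.58 to -0.10), and over the 4 kept partner arms it was -0.84 (-1.89 to 0.22). Neither median stands for every arm, since the arms of miR-18a and miR-19a were low and those of miR-19b-1 were not.

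**Figure D1:**
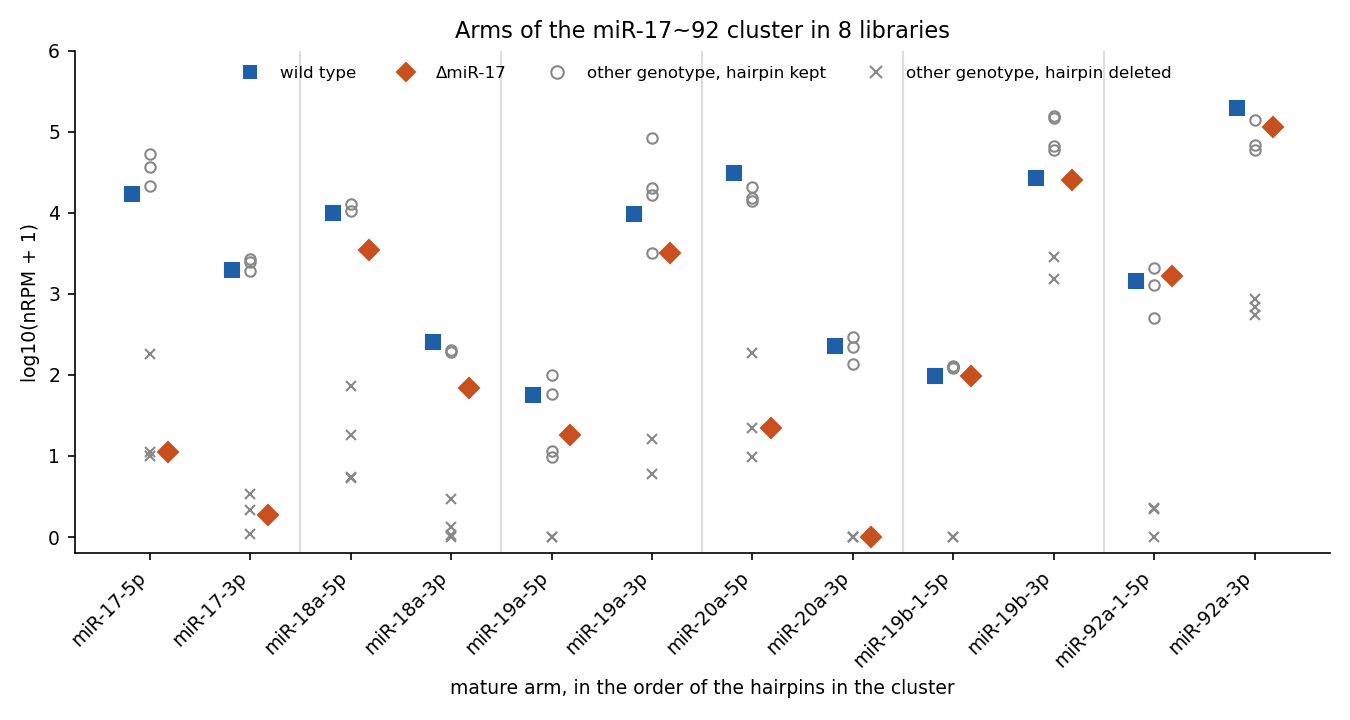
Level of each cluster arm as log10(nRPM + 1), with the hairpins in cluster order and separated by lines. Squares are wild type, diamonds ΔmiR-17, and grey marks the other 6 genotypes, as circles where the hairpin was kept and crosses where it was deleted. Diamonds sit below squares for the arms of miR-18a and miR-19a, and at the level of the squares for miR-19b-1.

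Ratios between hairpins of the same library do not depend on scaling. miR-18a-5p per miR-19b-3p was 0.137 in ΔmiR-17, 0.376 in wild type and 0.178 in ΔmiR-92. miR-18a-3p per miR-19b-1-5p was 0.710, 2.66 and 1.63 in the same order. ΔmiR-17 was the lowest of the 3 libraries in both ratios, but for the guides ΔmiR-92 lay closer to it than to wild type. For miR-19a the other 3 libraries with both families can be set beside the other 2 that lack miR-17 and kept miR-19. miR-19a-5p per miR-19b-1-5p was 0.591 in wild type, 0.802 in ΔmiR-18 and 0.465 in ΔmiR-92, whereas ΔmiR-17 had 0.177, ΔmiR-17,18 had 0.0887 and ΔmiR-17,18,92 had 0.0680. The 3 libraries without miR-17 lay below the 3 with it, with no overlap.

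The level of miR-19a-5p showed the same split, at 8.65 to 16.96 nRPM in the 3 libraries without miR-17 and 56.4 to 99.7 in the 3 with it. The split includes the ΔmiR-17 and wild-type values already given. Without them, ΔmiR-17,18,92 and ΔmiR-17,18 stood at 8.65 and 10.6 nRPM, and ΔmiR-92 and ΔmiR-18 at 57.8 and 99.7. Among 538 miRNAs outside the cluster averaging 10 nRPM or more, 3.35% had the 3 libraries without miR-17 all below these 3. By level, unlike by its ratio to miR-19b-3p, the guide miR-19a-3p overlapped, at 3156 to 16795 nRPM without miR-17 and 9616 to 83003 with it. Both miR-19b arms overlapped too, miR-19b-1-5p at 95.6 to 127.2 nRPM without miR-17 and 95.3 to 124.3 with it. With 3 libraries against 3, an exact permutation test cannot pass a threshold of 0.05, so these ranges are a description. Of the 3 libraries without miR-17, the 2 other than ΔmiR-17 also lacked miR-18a. ΔmiR-18, which lacked miR-18a but kept miR-17, stood at 99.7 nRPM for miR-19a-5p, against 10.6 in ΔmiR-17,18. The part of miR-18a was not tested.

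The seed family as a whole was smaller in ΔmiR-17 by less than its cluster members had held. The 6 miRNAs with the seed AAAGUGC summed to 68524 nRPM in ΔmiR-17 and 107109 in wild type, or 64.0% of wild type. This was the lowest sum of the 8 libraries, with ΔmiR-17,18,92 next at 71793 and the other 5 mutants between 93971 and 138914. The 2 cluster members made up 45.2% of the sum in wild type and 0.0457% in ΔmiR-17. The 4 paralogs summed to 68493 nRPM in ΔmiR-17 and 58731 in wild type, a ratio of 1.17, against 58632 to 133549 in the other 6. The ratio was between 1.16 and 1.35 under the 4 other scalings. In the full deletion, where the paralogs were highest at 133549 nRPM, they alone exceeded the wild-type sum of the whole family, and in ΔmiR-17 they did not.

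Among the paralogs, miR-93-5p of the miR-106b cluster was the most abundant in ΔmiR-17, at 40584 nRPM against 33330 in wild type (ratio 1.22, 1.21 to 1.22) and 18894 to 76171 in the other 6. miR-106b-5p, from the same transcript, stood at 16749 and 16815 nRPM (ratio 0.996). These were the 2 lowest of the 8 libraries, since the other 6 ranged from 22555 to 47983. miR-20b-5p of the X-linked miR-106a cluster stood at 7873 nRPM against 5976 (ratio 1.32), and miR-106a-5p at 3287 against 2611 (ratio 1.26). For miR-106a-5p both libraries lay below the other 6, at 3618 to 9415 nRPM. Each of the 4 paralogs was thus within 1.5-fold of wild type, and none stood above all 7 other libraries.

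**Figure D2:**
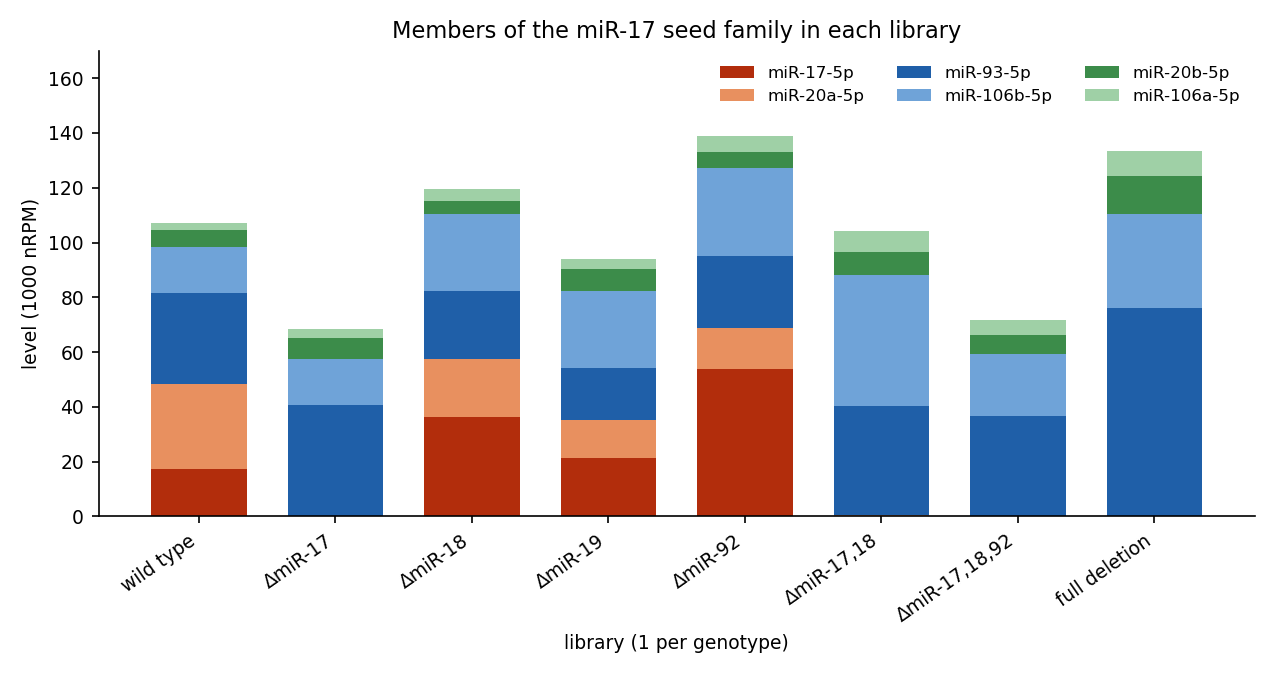
Stacked levels of the 6 miRNAs with the miR-17 seed in each library, in units of 1000 nRPM. Red shades are the cluster members, blue the miR-106b cluster and green the miR-106a cluster. ΔmiR-17 has the smallest total, 68524 nRPM, nearly all of it from miR-93-5p, miR-106b-5p, miR-20b-5p and miR-106a-5p.

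Other members of the paralog clusters were read separately. miR-25-3p, which has the seed of miR-92a and lies in the miR-106b cluster, stood at 50491 nRPM in ΔmiR-17 and 42538 in wild type (ratio 1.19), both above the other 6 at 24791 to 42118. miR-18b-5p, the X-linked copy of miR-18a, stood at 9478 against 6865 nRPM (ratio 1.38), within the wide range of the other 6 (1096 to 11423). miR-363-3p stood at 5729 against 4706 nRPM (ratio 1.22), above all 7 other libraries. Its partner miR-363-5p was lower, at 329.5 against 964.9 nRPM (ratio 0.341, 0.328 to 0.355), and both values lay below the other 6, at 1005 to 1943. The partner arm miR-92a-2-5p was lower too, at 98.4 nRPM against 180.8 (ratio 0.544) and below the 121.1 to 217.3 of the other 6. Summed, the miR-106a cluster was 1.26 times and the miR-106b cluster 1.19 times wild type, with 1 miRNA of 6 tested lower by 2-fold or more in the first and 1 of 5 higher in the second.

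Outside the cluster the 2 libraries were close. Among 319 miRNAs averaging 100 nRPM or more over the 8 libraries, 236 (74.0%) were within 1.5-fold and 22 (6.9%) differed by 2-fold or more, that is by a log2 ratio of 1 or more. Of these, 9 (2.82% of those tested) were higher in ΔmiR-17 and 13 (4.08%) lower, with a median log2 ratio of 0.03 over all. Plain read totals gave 21 higher and 10 lower, with that median moved by 0.21. The same count was 31 for ΔmiR-19 and between 44 and 77 for the other 5 mutants against the same wild-type library. As deposited, ΔmiR-17 thus had the smallest count of the 7 mutants, all of which share that control. With plain read totals its count was 31, and its rank under that scaling was not taken. ΔmiR-17 stood above all 7 other libraries for 35 miRNAs (11.0%) and below all 7 for 30 (9.4%). The 319 are rows, and some repeat the values of another name, such as miR-136-3p and miR-3071-5p. Fewer distinct miRNAs thus stand behind these shares.

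**Figure D3:**
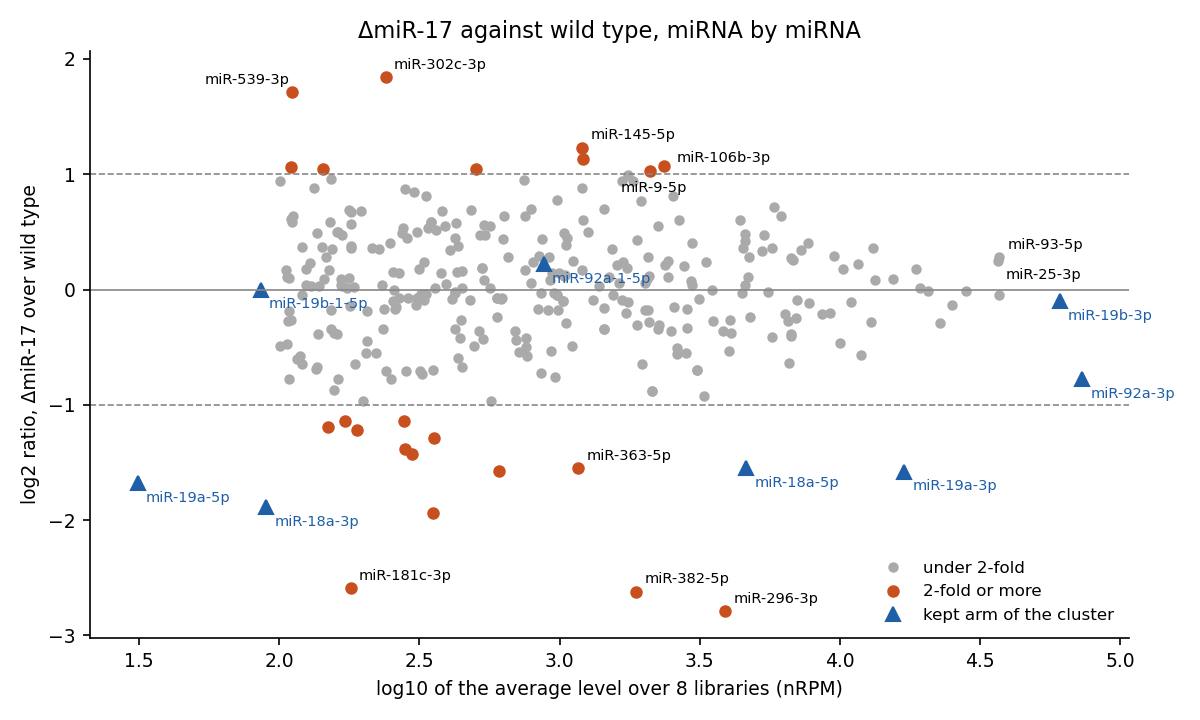
Log2 ratio of ΔmiR-17 over wild type against log10 of the average level (nRPM). Circles are the 319 miRNAs outside the cluster, orange for the 22 with a 2-fold or larger difference (dashed lines), and triangles are the 8 kept arms of the cluster. The arms of miR-18a and miR-19a lie below the lower dashed line, and miR-296-3p is the lowest point.

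For the 22, the other 6 genotypes show which of the 2 libraries lay apart. In 3 both libraries lay outside the range of the other 6, in 7 ΔmiR-17 alone did, in 6 wild type alone did, and in 6 neither did. The 3 with both outside were miR-296-3p, miR-363-5p and miR-140-5p, all lower in ΔmiR-17. Where wild type alone was outside, as for miR-302c-3p, the ΔmiR-17 value was one that other genotypes also showed.

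miR-296-3p was the one miRNA that passed the test, and it fell in ΔmiR-17. Its hairpin lies in the imprinted Gnas region. It stood at 851.2 nRPM in ΔmiR-17 and 5898 in wild type, a ratio of 0.144 (0.141 to 0.147). The other 6 libraries were tightly grouped, at 3672, 3738, 3888, 4191, 4286 and 4672 nRPM, so that ΔmiR-17 lay 4.31-fold below the lowest of them and wild type above the highest. In a limma fit in which the other 6 genotypes supplied the spread, its log2 ratio was -2.79 ± 0.38 (SE) with a Benjamini-Hochberg adjusted p = 0.0163. It was the only call among 538 miRNAs averaging 10 nRPM or more (0.186%), of which 16 had an unadjusted p under 0.05, and with plain read totals it was not called (adjusted p = 0.156). The lone libraries are assumed to vary like the other genotypes, which is no replicate error. The other arm of the same hairpin, miR-296-5p, did not go with it, at 220.0 nRPM in ΔmiR-17 against 171.1 in wild type (ratio 1.29).

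**Figure D4:**
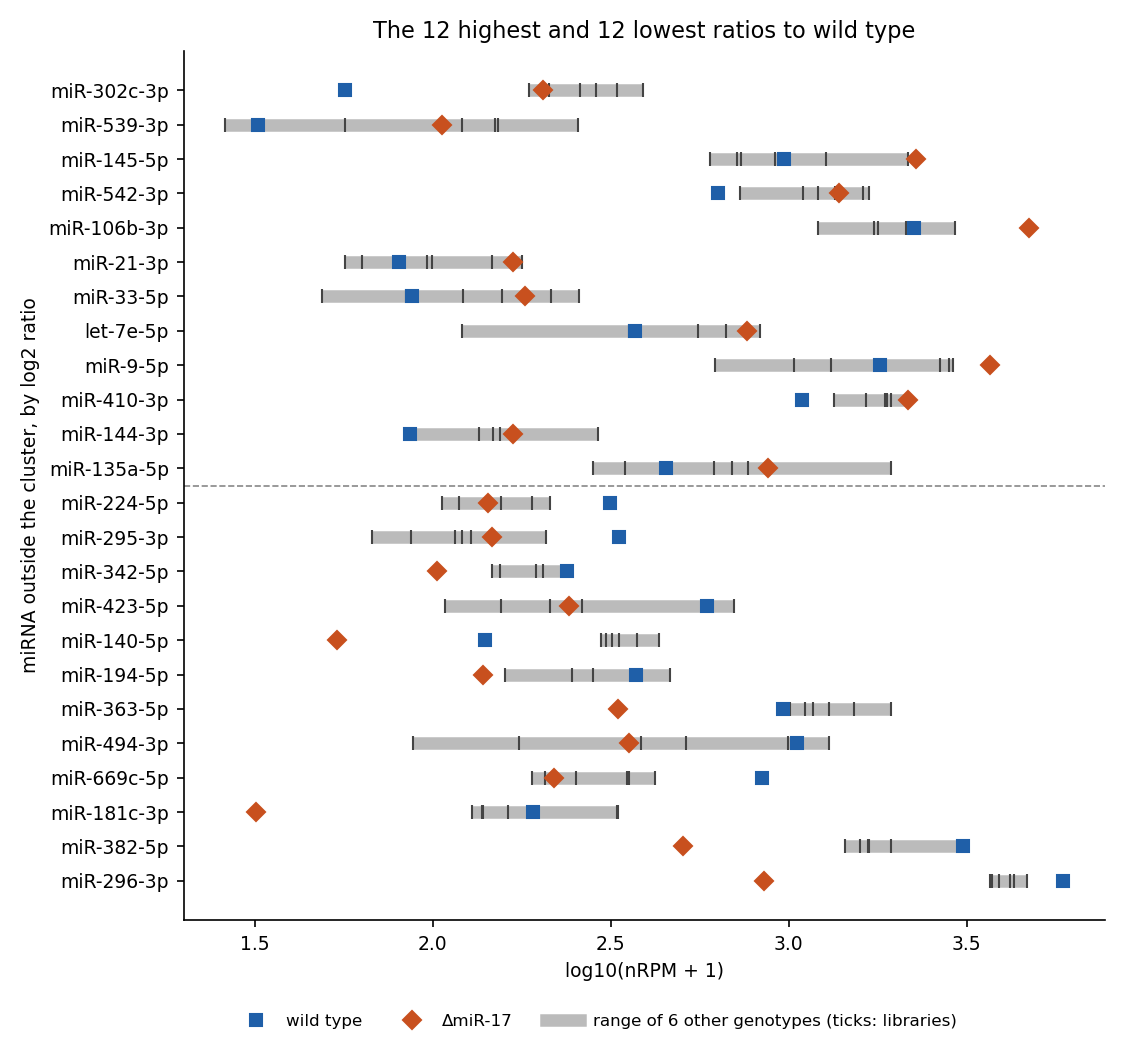
Levels as log10(nRPM + 1) of the 12 highest (above the dashed line) and 12 lowest ratios of ΔmiR-17 to wild type among miRNAs outside the cluster. Diamonds are ΔmiR-17, squares wild type, and grey bars with ticks the other 6 genotypes. For miR-296-3p, miR-382-5p and miR-181c-3p the diamond lies far left of the bar, and for miR-302c-3p it is the square that lies outside.

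The other lower miRNAs did not pass the limma test, and their values follow. DESeq2 on the recovered reads called miR-382-5p as well (adjusted p = 0.0039), and below 100 nRPM miR-376b-5p and miR-376c-5p (adjusted p = 0.00023 and 0.0002). miR-382-5p, of the imprinted Dlk1-Dio3 region, stood at 503.9 nRPM in ΔmiR-17 and 3096 in wild type (ratio 0.163), and the other 6 ranged from 1443 to 3103. ΔmiR-17 was thus 2.86-fold below the lowest other library (limma adjusted p = 0.149), while its other arm miR-382-3p stood at 1045 and 951.6 nRPM. miR-181c-3p, the partner arm of a miRNA known from lymphocytes and brain, stood at 30.7 nRPM against 189.6 (ratio 0.162) and 127.4 to 329.8 in the other 6. Its guide arm miR-181c-5p went the other way, at 2272 nRPM against 1187 (ratio 1.91). miR-140-5p, whose hairpin lies in the cartilage-expressed gene Wwp2, stood at 52.8 nRPM against 139.5, and at 295.6 to 432.0 in the other 6. For this miRNA wild type was itself low, and its abundant arm miR-140-3p stood at 5700 and 6778 nRPM (ratio 0.841).

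miR-194-5p, known from liver and gut epithelium, stood at 137.1 nRPM against 371.2 (ratio 0.369), just below the other 6 at 158.2 to 463.3. A second row of miR-194-5p with the same sequence stood at 93.7 against 142.9 nRPM, and the 2 rows summed to 230.9 against 514.1 (ratio 0.449), within the other 6 at 220.8 to 620.0. miR-342-5p stood at 101.7 nRPM against 237.9 (ratio 0.428) and 145.6 to 240.5 in the other 6. By single rows, these 2 completed the 4 lower miRNAs for which ΔmiR-17 alone lay outside. For miR-669c-5p of the Sfmbt2 intron cluster, miR-295-3p of embryonic stem cells, miR-224-5p and miR-455-5p, wild type was the outlying library. miR-669c-5p, for example, stood at 218.6 nRPM in ΔmiR-17 and 839.9 in wild type, with 189.3 to 418.9 in the other 6. miR-494-3p (353.7 against 1053 nRPM) and miR-423-5p (240.9 against 590.2 nRPM) lay within the other 6 in both libraries.

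Of the 9 higher miRNAs, ΔmiR-17 alone lay outside the other 6 for 3. miR-106b-3p, the partner arm of a paralog of the deleted miRNAs, stood at 4723 nRPM in ΔmiR-17 and 2251 in wild type (ratio 2.10, 2.06 to 2.14), with 1210 to 2930 in the other 6. It lay 1.61-fold above the highest other library, the widest gap above all 7 others, although its guide miR-106b-5p had a ratio of 0.996. miR-9-5p, a miRNA of neural progenitors, stood at 3684 nRPM against 1805 (ratio 2.04) and 619.8 to 2896 in the other 6. Its other arm miR-9-3p was higher as well, at 130.7 nRPM against 49.5 (ratio 2.64). miR-145-5p, known from smooth muscle, stood at 2275 nRPM against 966.7 (ratio 2.35), with ΔmiR-19 nearly as high at 2167 and the other 5 at 598.3 to 1276.

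The highest ratio belonged to miR-302c-3p, of a cluster active in pluripotent cells and the early embryo. It stood at 202.5 nRPM in ΔmiR-17 and 55.7 in wild type (ratio 3.63, 3.25 to 4.07), but the other 6 ranged from 184.8 to 387.7, so wild type was the low library. miR-542-3p was of the same kind, at 1383 nRPM against 633.5 and 727.8 to 1685 in the other 6. miR-539-3p stood at 104.8 nRPM against 31.3 (ratio 3.35), within a range of 25.1 to 255.1. For it and for miR-33-5p, let-7e-5p and miR-21-3p, all with ratios of 2.08 to 3.35, both libraries lay within the other 6. The abundant arm miR-21-5p stood at 17577 and 17464 nRPM (ratio 1.01).

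Just under 2-fold, the next 3 higher miRNAs were miR-410-3p (ratio 1.99), miR-144-3p of red blood cells (1.95) and miR-135a-5p (1.93). miR-22-3p stood at 1179 nRPM in ΔmiR-17 against 753.3, and miR-615-3p, from a Hoxc intron, at 1989 against 1310. Their ratios of 1.56 and 1.52 were below 2-fold, yet both lay above all 7 other libraries, by 1.46-fold and 1.39-fold.

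Both arms of a hairpin come from 1 precursor, so the other arm offers a second reading of each hairpin. For 16 of the 22 the other arm averaged 10 nRPM or more, and for 10 of these it differed from wild type in the same direction. Several of the 10 were close to wild type, with log2 ratios of 0.01 for miR-21-5p, 0.08 for miR-542-5p, 0.09 for miR-302c-5p and -0.09 for miR-342-3p. Some of opposite direction were close too, such as miR-106b-5p at -0.01. The share over all hairpins was not taken, so the 10 of 16 is a description. Only miR-9 differed by 2-fold or more on both arms in the same direction. For the hairpins of miR-296, miR-382, miR-363 and miR-181c, one arm was at 0.144 to 0.341 times wild type while the other was at 1.10 to 1.91 times.

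A short sequence, the 5 bases GUGGA, was noticed in some of the lowest miRNAs after their values had been seen, so the counts that follow describe these rows and support nothing about the letters. GUGGA was searched on the mature strand of 428 rows with a RefSeq sequence that lay outside the cluster at an average of 10 nRPM or more. It occurred in 15 rows (3.505%), and in 4 of the 10 lower miRNAs with a sequence, in 0 of 6 higher ones and in 10 of the 253 tested. The 6 rows furthest below the other libraries are shown with these bases in capitals.
miR-376b-5p: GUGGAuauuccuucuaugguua
miR-376c-5p: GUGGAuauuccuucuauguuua
miR-181c-3p: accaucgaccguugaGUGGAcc
miR-296-3p: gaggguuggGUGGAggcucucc
miR-382-5p: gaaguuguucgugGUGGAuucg
miR-194-5p: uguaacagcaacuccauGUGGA
The 15 rows are fewer than 15 distinct miRNAs, since both rows of miR-194-5p are among them and miR-291a-5p and miR-291b-5p are near copies. In ΔmiR-17 their distances from the median of the other 7 libraries ran from -4.50 to -0.10 on the log2 scale. All 15 were thus below it, beside 197 of the 413 rows without GUGGA (47.7%). For the other 7 libraries in turn, between 4 and 10 of the 15 were below. miR-376b-5p and miR-376c-5p, which differ by 1 edit and so may share reads, stood at 1.63 and 0.444 nRPM in ΔmiR-17 and 34.8 and 13.9 in wild type. The 15 also held rows close to the others, such as miR-370-3p at 4475 against 5954 nRPM and miR-188-5p at 37.5 against 35.7. Without these rows 18 of 309 miRNAs differed by 2-fold or more, 9 in each direction. The match is a description of these letters, and its part in the lower values was not tested.

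A second pair of libraries differs by the same family without using either of these 2. ΔmiR-17,18 against ΔmiR-18 adds the loss of miR-17 and miR-20a to an embryo without miR-18a. Of the 22 miRNAs, 7 differed there in the same direction as in ΔmiR-17 against wild type, beside 46.1% of all 319, and 2 of these by 2-fold or more. The 2 were miR-539-3p, 4.596 times as high in ΔmiR-17,18, and miR-181c-3p, at 0.493 times. miR-296-3p stood at 3888 nRPM in ΔmiR-17,18 and 3738 in ΔmiR-18 (ratio 1.04). miR-9-5p and miR-145-5p went the opposite way, with ratios of 0.453 and 0.576. Across the 319 miRNAs, which are not independent replicates, the log2 ratios of the 2 pairs had a Pearson r of -0.08 and a Spearman rho of -0.13. This second pair had 54 miRNAs with a 2-fold or larger difference.

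**Figure D5:**
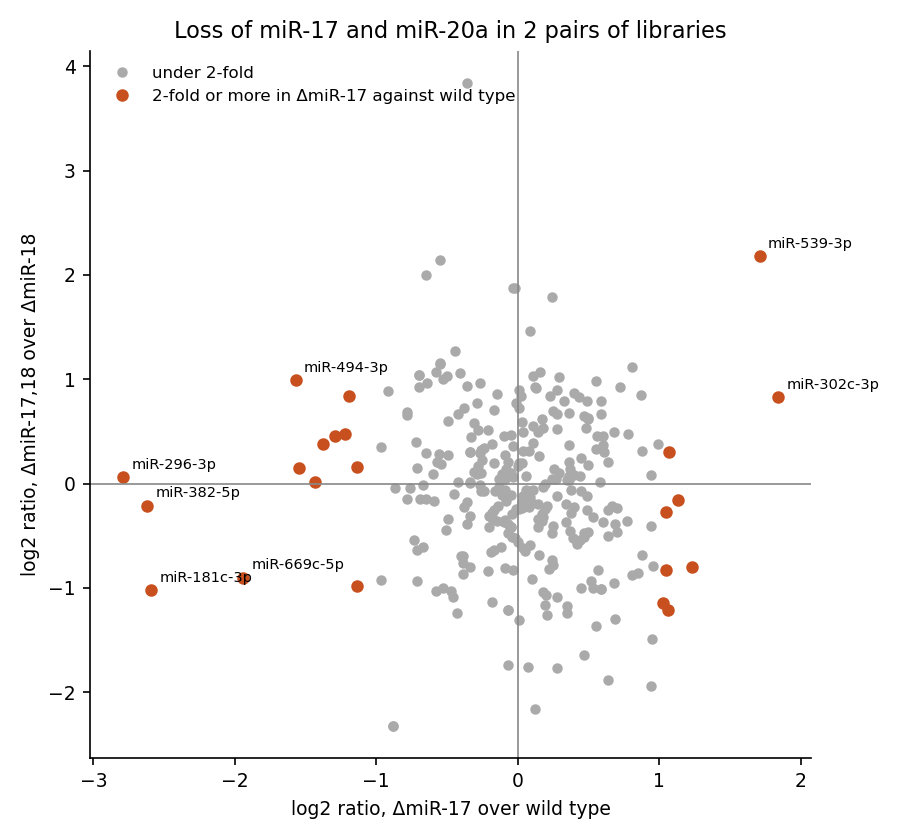
Log2 ratio of ΔmiR-17,18 over ΔmiR-18 (vertical) against that of ΔmiR-17 over wild type (horizontal) for 319 miRNAs outside the cluster. Orange points are the 22 with a 2-fold or larger difference on the horizontal axis. Of these, 7 lie in the quadrants of equal sign, and miR-296-3p lies near 0 on the vertical axis.

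Groups of miRNAs that mark tissues or share loci were read against the 6.9% of all miRNAs with a 2-fold or larger difference and their median log2 ratio of 0.03. The let-7 family, which accumulates as cells differentiate, had 1 of 6 tested members higher and a median log2 ratio of 0.47, with let-7f-5p at 1187 against 847 nRPM and let-7a-5p at 1145 against 841. The summed family, at 1.38 times wild type, was 4264 nRPM in ΔmiR-17, above the other 6 at 2630 to 4220. The cluster of miR-302 and miR-367 had 1 of 7 higher, with a median of 0.60, led by miR-302b-3p at 3657 against 2404 nRPM. Its tested members ran from a log2 ratio of -0.76 (miR-302a-5p, 862.6 against 1464 nRPM) to 1.84. Its sum of 8862 nRPM, 1.26 times wild type, lay within the other 6 at 5946 to 9543. The cluster of miR-290 to miR-295, embryonic stem cells, had 1 of 8 lower and a median of -0.63, and its sum of 2257 nRPM lay within the other 6.

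The neural list had 1 of 10 higher (miR-9-5p) and a median of 0.13, the blood list 0 of 7 with a median of 0.34, and the endothelial pair miR-126 0 of 2 with 0.34. The epithelial list had 0 of 7 and a median of -0.03, and the Hox cluster miRNAs 0 of 6 and a median of -0.09. The most abundant Hox miRNAs, miR-10b-5p and miR-10a-5p, stood at 34163 against 35273 and 25887 against 28263 nRPM. The mesenchymal list had 1 of 9 higher (miR-145-5p) and 1 lower (miR-140-5p). The muscle list had 0 of 4 tested members with a 2-fold difference and a median log2 ratio of -0.34. Its members differed in both directions: miR-1a-3p stood at 1531 nRPM against 2483 (ratio 0.616), below the other 6 at 2210 to 5001, while miR-206-3p stood at 199.7 against 107.7 nRPM (ratio 1.85) and miR-133a-3p at 431.2 against 427.2. The row of miR-1b-5p repeats the values of miR-1a-3p, so the list counts those reads more than once and its sum is not given.

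Of 60 tested miRNAs of the Dlk1-Dio3 region, a large imprinted miRNA locus, 1 was higher and 2 were lower, with a median log2 ratio of 0.01. Its 2 most abundant members, miR-127-3p and miR-541-5p, stood at 18427 against 22510 and 20047 against 20179 nRPM. Besides miR-382-5p and miR-494-3p, the less abundant miR-376b-5p and miR-376c-5p of this region, under the 100 nRPM needed to be tested by size, were far below wild type as given above. The list of H19, Igf2 and Gnas miRNAs had a sum of 2291 nRPM against 7046 (ratio 0.325), of which miR-296-3p made up 851.2 and 5898 nRPM. The list's median over 6 tested was 0.26, and miR-483-3p stood at 667.0 against 453.4 nRPM. In the remaining lists, miR-181 had 1 of 7 lower (miR-181c-3p), the Sfmbt2-type list 1 of 3 lower (miR-669c-5p) and the X-linked list of miR-322, miR-503, miR-450 and miR-542 had 1 of 8 higher (miR-542-3p). No member differed by 2-fold or more in 8 further lists: miR-191 and miR-425 (2 tested), miR-30 (10), miR-15, miR-16 and miR-103 (7), miR-23, miR-24 and miR-27 (5), miR-130 and miR-301 (5), miR-34, miR-449 and miR-210 (3), miR-99, miR-100 and miR-125 (7), and sensory miR-183, miR-96 and miR-182 (4).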

How the data were processed

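Small RNA from mouse embryos was measured in 8 genotype libraries, 1 each, and 1 library of undetermined reads, which was not used. Per the submitters' processing notes, reads went through STAR 2.2.0, SAMtools 0.1.19 and featureCounts (Subread 1.4.2) on build mm9. The sources used here do not say how multiply mapping reads were counted. The deposited signal values are reads divided by a library factor, and 100% came out as whole reads within 0.001. They were multiplied by 0.1159 to give nRPM. Of 977 accessions, 57 were listed more than once. Their rows within 10% in total were merged (986 of 1046 rows left), and 8 accessions stayed as several rows. For miR-92a-3p, the higher row was taken for the cluster on the basis of its values, and the lower one was left out of counts outside it.

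A pseudocount of 1 nRPM was added before taking log2, so differences of low miRNAs are understated. Differences were counted by size (average of 100 nRPM or more, log2 ratio of 1 or more). limma 3.58.1 (trend, R 4.3.3) fitted 3 levels (ΔmiR-17, wild type, the other 6) to rows averaging 10 nRPM or more, with a threshold of adjusted p of 0.05. Its alternatives on recovered reads called 1 miRNA (edgeR 4.0.16, quasi-likelihood) and 4 (DESeq2 1.42.0). Matched RefSeq sequences covered 773 rows. The rule for names took every arm of the 3 clusters, 12 highest and 12 lowest ratios outside (at least 20 reads in either library), the 5 furthest above and 5 furthest below all other libraries, the 5 most abundant, and the 2 most abundant of each list. The members and lists were chosen with earlier results of these data known. The GUGGA rows, the other arm of a hairpin and the second row of miR-194-5p were named outside that rule, after their values were seen. So were miR-208a-3p, miR-208b-3p, miR-499-5p, miR-124-3p, miR-133a-3p, miR-206-3p and miR-455-5p.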

Additional observations from a re-analysis of the deposited data

How the results depend on the processing

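With 1 library a side, no value has a replicate check, and counting error is far smaller than the differences between libraries of other genotypes. The median log2 ratio over guide arms kept in ΔmiR-17 (-1.17), that over partner arms (-0.84) and that of the summed seed family (-0.64) moved by less than the spread between libraries under all 4 other scalings, and under both other pseudocounts for the arms. Those spreads were 0.69, 0.55 and 0.28. A scaling moves all log2 ratios together, here by at most 0.21, so under the scalings this outcome was fixed in advance. The 22 miRNAs with a 2-fold or larger difference became 60 (of 538) at an average of 10 nRPM or more, 7 (of 132) at 1000 nRPM or more and 175 (of 973) with no filter, because other miRNAs were tested. Plain read totals, TMM and the other settings gave 20 to 31. For the second pair, the 7 of 22 in the same direction became 11 of 31 with plain read totals, 10 of 23 with TMM and 21 of 60 at an average of 10 nRPM or more. limma's 1 call became 0 with plain read totals (12 at an unadjusted p under 0.05) and 2 with a pseudocount of 0.1 nRPM, while DESeq2 on the recovered reads gave 4 (miR-296-3p, miR-382-5p, miR-376b-5p and miR-376c-5p). The cause of these 3 changes was not tested. Leaving out each of the 6 other genotypes in turn gave 1 call each time, miR-296-3p, with adjusted p between 0.035 and 0.0455. Of 95 single miRNAs under 6 settings, 559 values stayed within the spread of the other genotypes, 11 moved by more, and none of 2-fold or more changed sign. For cluster arms that spread takes in libraries lacking the hairpin (5.87 on the log2 scale for miR-17-5p), so they could hardly move beyond it. Scalings moved the median log2 ratio by at most 0.21, and a pseudocount cannot change a sign. That no 2-fold ratio changed sign was thus fixed in advance. Ratios near 1 did change sign: 11 with plain read totals (the furthest from 0 was miR-27b-3p, at a log2 ratio of -0.15 as deposited), 3 with TMM and 2 with median-ratio factors. No paired analysis was possible because each genotype had 1 library and no pairing label.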

Other observations

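The ΔmiR-17 and wild-type libraries stood together at one end of the 8 libraries for 50 of the 319 miRNAs outside the cluster (15.7%), above the other 6 for 19 and below them for 31. This was the third highest of the 28 pairs of libraries, after ΔmiR-17,18 with the full deletion (61) and ΔmiR-92 with ΔmiR-17,18 (51), and the lowest pairs had 5. The 5 with the widest gap to the other 6, ranked after their values were seen, were miR-140-5p, given above, and the following 4. miR-101a-3p stood at 4022 nRPM in ΔmiR-17 and 5169 in wild type, against 801 to 2212 in the other 6. miR-361-3p stood at 202.4 and 326.4 nRPM, above the other 6 at 70.4 to 117.7. miR-27b-3p, of muscle and vessels, stood at 1432 and 1593 nRPM, below the other 6 at 2630 to 3538, and miR-467e-5p at 38.7 and 54.8 nRPM, below 89.7 to 151.3. Depth differed between the 2 libraries, and its part and that of dissection in this likeness were not tested.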
